A study of Macaca mulatta with 20 samples.

Results

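RLN2, the gene of relaxin, was measured in the corpus luteum of rhesus macaques at 5 stages of the luteal phase. It was chosen by its symbol, with earlier results of these data known. In the platform annotation, 1 of the 52707 probe sets tested carried RLN2 as its only gene symbol. This makes RLN2 1 of 14132 genes measured. The animals were cycling females in natural menstrual cycles, and each array held the RNA of a separate corpus luteum. The stage was the only factor, and it was counted in days from the surge of luteinizing hormone (LH), placed by daily estradiol assays. Early corpora lutea came from days 3 to 5, when the ovulated follicle turns into luteal tissue. Mid corpora lutea came from days 7 to 8, at peak progesterone output, and mid-late ones from days 10 to 12, when progesterone is still made. Late corpora lutea came from days 14 to 16, at functional regression, when progesterone secretion stops. Very-late ones came from days 18 to 19, at menses and structural regression, when the tissue breaks down. There were 4 arrays per stage, and the labels do not give the exact day of each animal within its stage.

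Relaxin is a peptide hormone of the insulin superfamily. It is made as a prohormone, cut by convertases into an A and a B chain, and acts through the G protein-coupled receptor RXFP1, which raises cyclic AMP. In primates the corpus luteum is the main source of circulating relaxin, which is best known for remodelling collagen, widening blood vessels and preparing the endometrium for pregnancy.

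Values are log2 signals, so 1 unit is a 2-fold difference. The 683 probe sets for viral genomes had a median of 3.42 and a 95th percentile of 4.3, and were taken as the level of background. Within a stage, pairs of arrays correlated at r = 0.964 to 0.995 across probe sets. Some arrays stood apart. The mean signal of 6 mitochondrial probe sets split the arrays into 13 with 11.5 to 12.45 and 7 with 7.02 to 8.93. The low group took in every mid array, plus very-late replicate 2, mid-late replicate 1 and early replicate 4. Very-late replicate 2 also had the lowest correlation with the rest of its stage, r = 0.973. The excess of the GAPDH signal at the 3' end over the 5' end was 2.70 in very-late replicate 1, 0.83 in very-late replicate 2, and 1.13 to 1.78 in the other 18 arrays. As a check of the luteal label, STAR was read, which carries cholesterol into the mitochondrion for steroid synthesis. It lay at 13.03 to 13.51 in the 16 arrays of the first 4 stages, and at 8.05 to 10.55 in the very-late arrays. STAR alone does not settle the label.

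RLN2 signal was higher at each stage from early through late, then spread widely at the very-late stage. At the early stage the 4 arrays read 7.88, 9.44, 4.94 and 6.57. Mid arrays read 10.28, 10.94, 10.84 and 10.51. Mid-late arrays read 11.75, 11.32, 12.43 and 11.98. The highest values were those of the late stage, at 13.14, 12.75, 12.86 and 13.08. Very-late arrays read 11.19, 4.75, 11.94 and 12.55. From early to mid, from mid to mid-late and from mid-late to late, no array of the later stage overlapped the earlier stage. The 4 very-late arrays all lay below the lowest late array, and 3 of them lay at 11.19 to 12.55. The other, very-late replicate 2, lay below every early array.

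**Figure D1:**
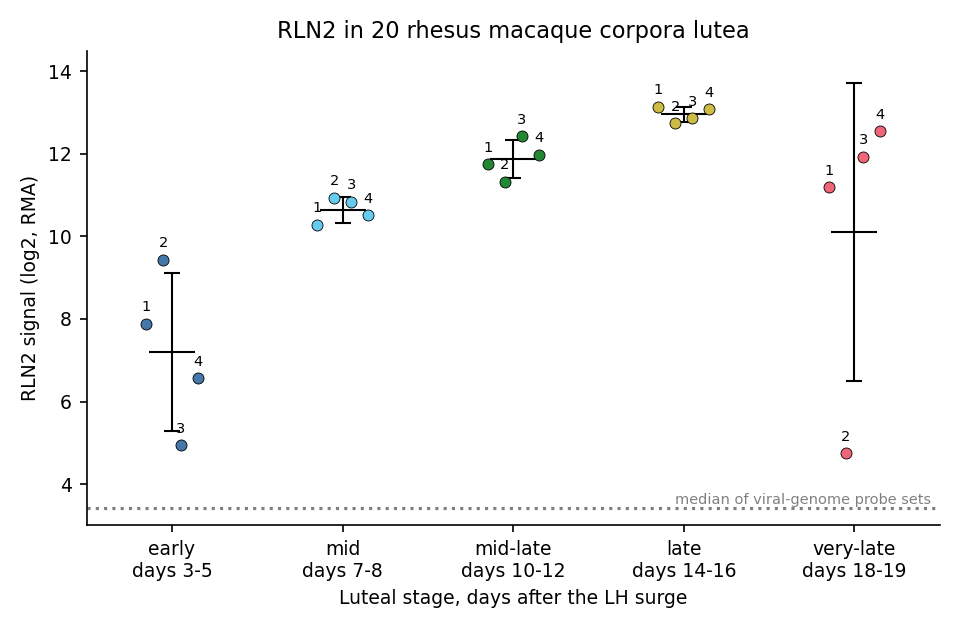
RLN2 signal (log2, RMA) in each of the 20 arrays, by luteal stage with its days after the LH surge. Points are arrays labelled by replicate number, bars are the stage mean ± SD (n = 4), and the dotted line is the median of viral-genome probe sets, 3.42. The late arrays sit at 12.75 to 13.14, while very-late replicate 2 sits at 4.75.

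The stage means were 7.21 ± 1.91 at early, 10.64 ± 0.30 at mid, 11.87 ± 0.46 at mid-late, 12.96 ± 0.19 at late and 10.11 ± 3.62 at very-late (log2, SD, n = 4). The spread was thus widest at the first and the last stage. Without very-late replicate 2 the very-late mean was 11.89 ± 0.68 (n = 3), close to the mid-late mean. Early arrays ranged over 4.50 log2 units, which is 22.6-fold between the lowest and the highest corpus luteum, and this range was the 14th largest of all probe sets. Because whole glands were measured, fewer cells of a type and less RNA per cell cannot be told apart.

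The series names the early stage as its baseline, so RLN2 was first set against it. In limma's fit over all 20 arrays, RLN2 differed between stages (moderated F = 6.55, adjusted p = 0.0134). At the same threshold, 21.5% of all probe sets differed between stages. A permutation of the stage labels with 100000 resamples gave p = 0.00832 for the between-stage sum of squares of RLN2. That p is for RLN2 alone and is not adjusted over probe sets. Late against early, RLN2 rose by 5.75 ± 1.20 (SE), a 53.9-fold difference with a 95% interval of 3.22 to 8.28 on the log2 scale (limma adjusted p = 0.00606). In that comparison limma called 7.58% of all probe sets. Mid-late against early, it rose by 4.67 ± 1.20, or 25.4-fold (limma adjusted p = 0.0371, with 3.73% of probe sets called). This call was lost in 7 of the 20 fits that left out 1 array: without early replicate 1, 3 or 4, or any 1 mid-late array, at adjusted p = 0.0523 to 0.132. Late against early passed in all 20 such fits.

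Mid against early, the difference was 3.44 ± 1.20, or 10.8-fold, which did not pass in the 20-array fit (limma adjusted p = 0.259, with 0.362% of probe sets called). Very-late against early, it was 2.90 ± 1.20, or 7.46-fold (limma adjusted p = 0.113, with 18.7% of probe sets called). Among the 52707 probe sets, the RLN2 difference was the largest rise in mid against early, in mid-late against early and in late against early. These 3 comparisons share the 4 early arrays, and RLN2 was chosen with earlier results of these data known, so the ranks are descriptions. The standard error of 1.20 was the same in all comparisons, because the fit takes 1 spread per probe set over the 5 stages. For RLN2 that spread was larger than for 99.97% of probe sets, and the early and very-late arrays make up most of it.

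Very-late replicate 2 decided several of these calls. Its RLN2 signal was 6.44 log2 units, or 87.1-fold, below the lowest of the other very-late arrays. Only 82 probe sets (0.156%) had a gap over 2 units there, and the RLN2 gap was the 4th largest. Without that array the standard error fell to 0.62, or to 0.67 in comparisons with the very-late stage. Mid against early then passed (3.44 ± 0.62, limma adjusted p = 0.0179, with 0.822% of probe sets called). Very-late against early passed as well, at 4.69 ± 0.67, or 25.8-fold (limma adjusted p = 5.98e-05, with 18.2% called). Mid-late against early passed at limma adjusted p = 0.000743 (5.25% called) and late against early at 2.75e-05 (9.36% called). The array's mitochondrial signal was low and its GAPDH 3' to 5' excess the smallest of the 20, and their part in its low RLN2 was not tested.

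**Figure D2:**
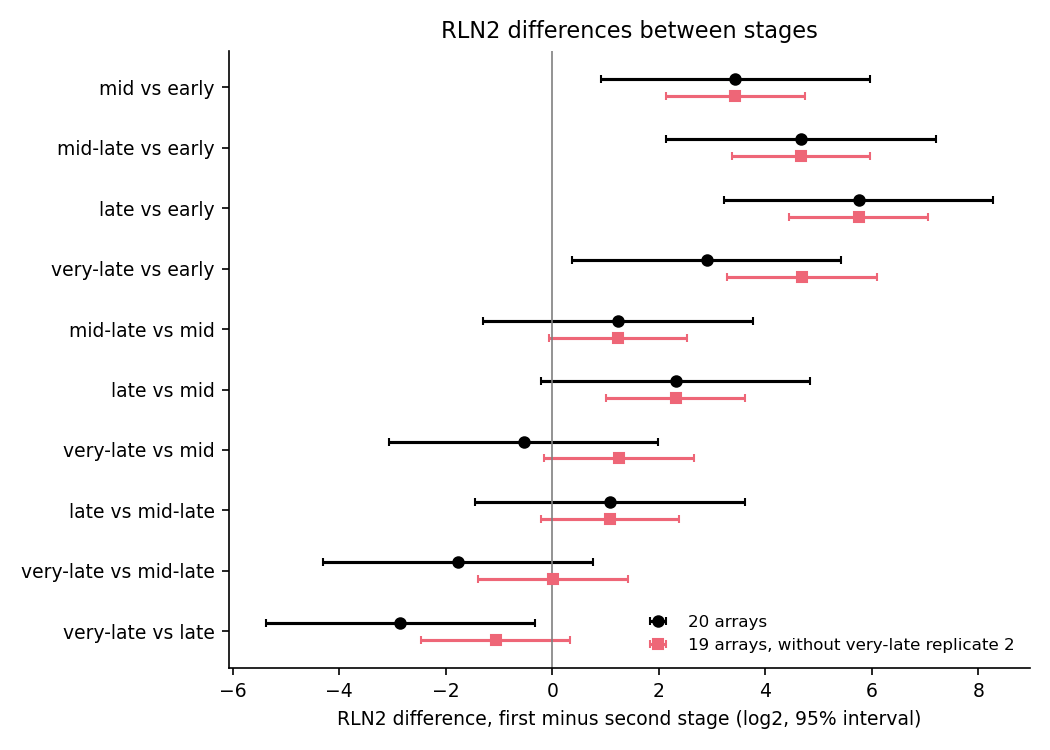
Differences in RLN2 between stages (log2, later minus earlier stage) with 95% intervals from limma, for all 10 pairs of stages. Black circles are the fit on 20 arrays and pink squares the fit on 19 arrays without very-late replicate 2. The late against early difference is 5.75 in both, and very-late against mid-late is -1.77 with that array and 0.0202 without it.

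Setting the stages in order of their means gave late, mid-late, mid, very-late and early. No pair of neighbours in that order passed in the 20-array fit. Late against mid-late the difference was 1.08 ± 1.20 (limma adjusted p = 0.987), with a 95% interval of -1.44 to 3.61, and 0.0114% of probe sets were called. Mid-late against mid it was 1.23 ± 1.20 (limma adjusted p = 0.93), again with 0.0114% called. Very-late against mid it was -0.54 ± 1.20 (limma adjusted p = 0.841, with 18.6% called). Outside that order, very-late against mid-late was -1.77 ± 1.20 (limma adjusted p = 0.393, with 17.4% called). Late against mid, the difference was 2.32 ± 1.20, or 4.98-fold (limma adjusted p = 0.413, with 2.17% of probe sets called). It passed without very-late replicate 2 (limma adjusted p = 0.048, with 3.41% called), while late against mid-late did not (limma adjusted p = 0.778, with 0.0550% called).

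Tests on RLN2 alone weighed the 4 arrays of a stage against the 4 of another. The exact two-sided permutation test gave p = 0.0286, the smallest that 4 against 4 can give, in each of 7 pairs whose arrays did not overlap. Adjusted over the 10 pairs this was 0.0409. In 3 of them the early stage was the lower one, and mid, mid-late or late the higher. Both mid-late and late lay above mid, late lay above mid-late, and very-late lay below late. Non-overlap in either direction was found for 6.24% of probe sets in mid against early, 12.0% in mid-late against early and 13.7% in late against early. It was found for 4.79% in mid-late against mid, 9.97% in late against mid, 5.67% in late against mid-late and 15.2% in very-late against late. The full climb was rarer: 6 of 52707 probe sets (0.0114%) rose with no overlap at each of these 3 steps, and 7 (0.0133%) fell so. Of the 6, RLN2 had the largest difference of late against early. The sole other one with a gene symbol was a probe set of FCGRT, the neonatal Fc receptor, which was 0.87 higher at late than at early.

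All 4 mid arrays belonged to the group with low mitochondrial signal and all 4 late arrays to the group with high signal, so the 2 stages cannot be compared within either group. With a term for this split, mid against early was 5.48 ± 1.24 (limma adjusted p = 0.0852) and very-late against mid was -2.58 ± 1.24 (limma adjusted p = 0.21). In the same fit the difference of mid-late against mid was -0.81 ± 1.24 (limma adjusted p = 0.972) and that of late against mid was -0.40 ± 1.39 (limma adjusted p = 0.965). On the 13 arrays with high signal, late against early was 5.54 ± 0.76 (limma adjusted p = 0.00136) and mid-late against early was 4.49 ± 0.82 (limma adjusted p = 0.0166). Within the low group there was 1 early array, at 6.57, and the 4 mid arrays lay at 10.28 to 10.94. Mid-late replicate 1, also in that group, lay above them at 11.75, and very-late replicate 2 lay at 4.75. The term for the split rests largely on very-late replicate 2.

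At the step into structural regression the steroid genes STAR, HSD3B2 and CYP19A1 fell, and RLN2 did not pass limma's test. Very-late against late, RLN2 differed by -2.85 ± 1.20, which is 7.22-fold lower (limma adjusted p = 0.143, with 13.8% of probe sets called). Without very-late replicate 2 it differed by -1.06 ± 0.67, or 2.09-fold lower (limma adjusted p = 0.388, with 11.9% called). STAR read 8.11, 8.05, 9.88 and 10.55 in very-late arrays, against 13.30, 13.38, 13.44 and 13.33 in late arrays. It fell by 4.22 ± 0.38 (limma adjusted p = 4.33e-07), and no arrays of the 2 stages overlapped. HSD3B2, which makes progesterone from pregnenolone, averaged 6.05 ± 0.41 at very-late and 9.35 ± 1.14 at late (limma adjusted p = 6.79e-06). CYP19A1, the aromatase that makes estrogens, averaged 6.24 ± 0.70 at very-late and 11.26 ± 0.84 at late (limma adjusted p = 7.04e-07). In very-late replicates 1, 3 and 4, RLN2 stood at 11.19 to 12.55. For RLN2 as for these 3 genes, all very-late arrays lay below all late arrays. Whether the RLN2 change differed from theirs was not tested.

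**Figure D3:**
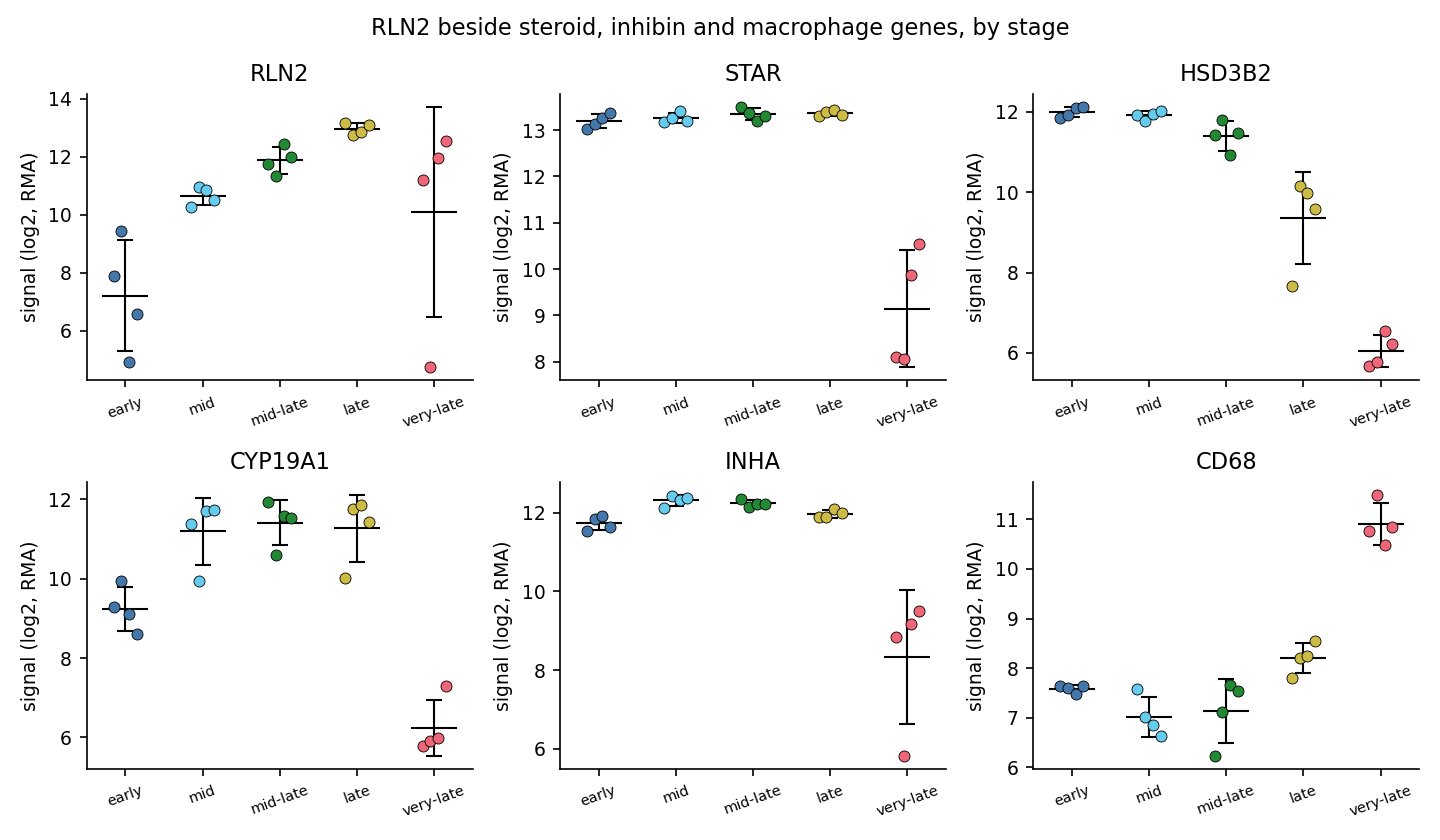
Signal (log2, RMA) of RLN2, STAR, HSD3B2, CYP19A1, INHA and CD68 by stage, with 1 point per array and bars for the mean ± SD (n = 4). STAR, HSD3B2, CYP19A1 and INHA lie low in all 4 very-late arrays, CD68 lies high in all 4, and RLN2 lies low in very-late replicate 2.

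INHA, the alpha subunit of inhibin, read 8.83, 5.82, 9.16 and 9.50 in very-late arrays, against 11.89 to 12.08 in late arrays. It fell by 3.63 ± 0.50 (limma adjusted p = 5.43e-05). Very-late replicate 2 was the lowest array of the 20 for INHA as for RLN2. CD68, a macrophage marker, read 10.77, 11.49, 10.49 and 10.84 in very-late arrays, against 7.81 to 8.55 in late arrays, and rose by 2.70 ± 0.27 (limma adjusted p = 1.84e-06). It was highest in very-late replicate 2. In very-late against late, 1 of the 2 CD68 probe sets passed.

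Markers of other cell types that the gland can hold were read beside these values. Of 8 macrophage markers 7 were measured, and their mean was 8.66, 9.61, 8.52 and 8.69 in very-late arrays, against 6.71 to 7.38 in late arrays. In very-late against late, 5 of the 7 rose (CD68, CD14, CYBB, AIF1 and MSR1) and 0 fell. Of all probe sets, 6.75% rose and 7.03% fell in that comparison. CYP17A1, the androgen-making enzyme and the sole measured marker of 2 for theca-lutein cells, read 5.84, 4.52, 7.40 and 9.12 in very-late arrays, against 7.85 to 8.34 in late arrays. At the early stage it read 7.74, 7.94, 6.22 and 6.43. The order of the arrays matched that of RLN2 at these early and very-late stages, but not at mid, mid-late or late. At mid-late and at late the array highest for RLN2 was the lowest for CYP17A1. CYP17A1 passed neither late against early nor very-late against late. The mean of 4 measured granulosa-lutein markers of 6 was 4.83 to 5.98 in very-late arrays and 7.25 to 7.75 in late arrays, and in very-late against late 2 of the 4 fell (CYP19A1 and INHBA). The mean of 4 fibroblast markers of 5 was 9.56, 8.66, 9.43 and 8.95 in very-late arrays and 10.55, 10.12, 9.15 and 9.74 in early arrays. In very-late against late 2 of these 4 fell (COL1A1 and COL1A2). None of these markers' part in the RLN2 values was tested.

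The other peptides of the relaxin family stayed near background, apart from INSL4. RLN3, a brain relaxin, had stage means of 3.59 to 3.67, INSL5, a gut peptide, of 3.43 to 3.52, and INSL6, a testis peptide, of 2.99 to 3.09. None passed late against early or very-late against late. INSL4, a placental peptide in human, had probe sets that disagreed. The brighter one, whose type can match several transcripts, averaged 10.77 ± 0.08 at late and 11.05 ± 0.16 at early, a fall of 0.29 ± 0.08 (limma adjusted p = 0.0282). The call was lost in 6 of the 20 fits that left out 1 array. The other INSL4 probe set had stage means of 3.52 to 4.47 and read 6.75 in early replicate 4 alone, and it was not called (limma adjusted p = 0.265). RLN1, INSL3, RXFP2 and RXFP4 were not analysed here. In the RefSeq table for assembly T2T-MMU8v2.0, RLN1 is a synonym of the macaque RLN2, and the RLN2 probe set is also of a type that can match several transcripts. Signal of near copies can therefore not be told apart from RLN2.

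Of the 4 relaxin family receptors, 2 were measured and both lay near background. RXFP1, the receptor that relaxin binds, had stage means of 3.28 to 3.44. RXFP3, the receptor of RLN3, had stage means of 3.94 to 4.05. Neither passed in late against early or in very-late against late. At such levels a difference may not be detectable on these arrays.

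Over the 10 gene lists drawn up around RLN2, 94 of 123 genes were measured. Late against early, 21 passed, RLN2 included, and in very-late against late 33 did, and both counts were the same without very-late replicate 2. Without late replicate 2, 12 passed in late against early, and of all 52707 probe sets 2873 did, against 3994 with all arrays. Over all probe sets, 3.61% rose and 3.97% fell in late against early, and 6.75% rose and 7.03% fell in very-late against late. These shares are over 52707 probe sets, 27390 of them without a symbol, while each list gene was counted on its brightest probe set. The counts and shares are therefore not on a like footing. With probe sets below the median mean signal left out, 4249 passed in late against early and 7022 in very-late against late. With all 52707 probe sets, 3994 (7.58%) and 7262 (13.8%) passed. The setting without dim probe sets tested fewer of them, so its counts are larger shares than these. The median difference of all probe sets was 0.00 in late against early and 0.02 in very-late against late.

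Of the genes that cut and pack peptide hormones, 9 of 15 were measured, and 0 rose or fell in late against early, with a median difference of 0.05. In very-late against late 1 fell, PCSK5, a proprotein convertase. It averaged 4.87 ± 0.36 at very-late and 6.36 ± 0.20 at late, a difference of -1.50 ± 0.17 (limma adjusted p = 6.81e-06, in 1 of its 2 probe sets).

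Of the genes that relay the relaxin signal, 16 of 20 were measured. Late against early, 1 rose and 2 fell, with a median of 0.11. ADCY4, an adenylate cyclase that makes cyclic AMP, averaged 8.14 ± 0.16 at late and 7.36 ± 0.26 at early (0.79 ± 0.18, limma adjusted p = 0.0126). GNAI3, an inhibitory G protein subunit, fell by 0.40 ± 0.10 (limma adjusted p = 0.0195) in 1 of its 4 probe sets, and AKT1, a kinase, fell by 0.45 ± 0.13 (limma adjusted p = 0.0402). Very-late against late, 4 rose and 1 fell, with a median of -0.02. Those that rose were GNAI3 (1 of 4 probe sets), PRKACA, PRKACB (1 of 3) and PIK3CG (2 of 2). PIK3CG, a phosphoinositide kinase of leukocytes, averaged 5.74 ± 0.83 at very-late and 4.22 ± 0.17 at late (limma adjusted p = 0.000419), in the arrays where the macrophage marker mean was 8.52 to 9.61. NOS3, the endothelial nitric oxide synthase, fell by 0.51 ± 0.12 (limma adjusted p = 0.00882) in 1 of its 3 probe sets.

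Relaxin is known to act on matrix and vessels, and 15 of 16 matrix genes and 6 of 8 vascular genes were measured. Of the matrix genes, 1 rose and 1 fell in late against early, with a median of 0.00. MMP9, a gelatinase made by macrophages among other cells, averaged 9.20 ± 1.06 at late and 6.84 ± 0.35 at early, a rise of 2.35 ± 0.43 (limma adjusted p = 0.00252). The macrophage marker mean was 6.71 to 7.38 in those late arrays and 6.39 to 6.75 in the early ones. MMP1, a collagenase, fell by 1.23 ± 0.36 (limma adjusted p = 0.0412). Early replicate 4 read 6.13 and the other 3 early arrays 3.66 to 3.84. With 1 array left out the MMP1 difference ran from -1.47 to -0.64, and the call was lost in 10 of the 20 fits, each without a mid, mid-late or late array. Very-late against late, 3 rose (MMP9, TGFB1 and TGFBR1) and 3 fell, with a median of 0.04. The 3 that fell were TIMP1, an inhibitor of metalloproteinases, at -1.11 ± 0.07 (limma adjusted p = 1.14e-08), and the collagen chains COL1A1 at -1.51 ± 0.24 and COL1A2 at -0.89 ± 0.15. For TIMP1, 1 of 3 probe sets passed, for COL1A1 1 of 2 and for COL1A2 2 of 2.

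Of the vascular genes, 2 rose and 0 fell in late against early, with a median of 0.31. KDR, a receptor of vascular endothelial growth factor, averaged 5.24 ± 0.28 at late and 4.10 ± 0.27 at early (1.13 ± 0.25, limma adjusted p = 0.0094). FLT1, another such receptor, averaged 4.29 ± 0.13 at late and 3.88 ± 0.14 at early, near background (0.41 ± 0.10, limma adjusted p = 0.0161). Both fell in very-late against late, KDR by 0.94 ± 0.25 (limma adjusted p = 0.0165) and FLT1 by 0.36 ± 0.10 (limma adjusted p = 0.0198). For FLT1, 1 of its 2 probe sets passed in each comparison. Of 6 endothelial markers, EMCN, TEK and MMRN2 rose in late against early.

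The steroid and gonadotropin list had 10 of 14 genes measured. Late against early, CYP19A1 rose by 2.03 ± 0.47 (limma adjusted p = 0.011) and 4 fell (HSD3B2, HSD17B7, NR5A1 and HSD11B1), with a median of -0.27. HSD3B2 fell by 2.65 ± 0.37 (limma adjusted p = 0.000324) between the stages where RLN2 rose. For HSD17B7, 1 of 3 probe sets fell in late against early. Very-late against late, 0 rose and 7 fell, with a median of -2.01. LHCGR, the LH receptor, was not analysed here.

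Among 15 measured genes of 16 for luteal peptide hormones and their receptors, 2 rose and 2 fell in late against early, with a median of -0.14. ADIPOR2, an adiponectin receptor, rose by 0.78 ± 0.13 (limma adjusted p = 0.00091) and GHR, the growth hormone receptor, by 0.53 ± 0.15 (limma adjusted p = 0.0405). FST, the activin-binding follistatin, fell by 1.47 ± 0.36 (limma adjusted p = 0.0162) in 1 of its 3 probe sets. PGR, the progesterone receptor, fell by 0.47 ± 0.13 (limma adjusted p = 0.0363) at means near background. Very-late against late, 6 fell (INHA, INHBA, FST, PRLR, GHR and ADIPOR2) and 1 rose (ESR2), with a median of -0.17. Of 6 measured decidual genes of 7, 1 fell in late against early. This was LIF, a cytokine of implantation, which averaged 4.12 ± 0.16 at late and 5.97 ± 1.19 at early (limma adjusted p = 0.00686). None of the 6 passed in very-late against late.

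In the RefSeq table RLN2 lies on chromosome 15 between CD274, an immune checkpoint ligand, and INSL4. Of 19 names in a fixed list of its neighbours, older symbols and RLN1 included, 12 were measured. This list is not the set of nearest genes in the RefSeq table. It holds GLDC, which is not among the 10 genes on either side. It lacks IL33, RANBP6, BRD10, TPD52L3, SPATA6L and GLIS3, which are among them and have probe sets. Late against early, 1 rose and 2 fell, with a median of -0.05. PDCD1LG2, another checkpoint ligand, rose by 0.29 ± 0.08 (limma adjusted p = 0.0344), at stage means of 3.56 to 3.92 that are near background. RCL1, a gene of ribosomal RNA processing, averaged 6.65 ± 0.15 at late and 7.95 ± 0.14 at early, a fall of 1.30 ± 0.12 (limma adjusted p = 1.48e-05), seen in 1 of its 3 probe sets. The other one that fell was INSL4. Very-late against late, RCL1 rose by 0.44 ± 0.12 (limma adjusted p = 0.0194), and PLGRKT, RIC1, ERMP1 and PLPP6 fell. For RCL1 and for RIC1, 1 of 3 probe sets passed there. ERMP1, a metallopeptidase of the endoplasmic reticulum, fell by 1.32 ± 0.20 (limma adjusted p = 0.000151), but of its 4 probe sets 2 fell and 1 rose.

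The genes closest to RLN2 in their pattern were taken as those with the highest Pearson r of log2 values over the 20 arrays, among 5336 genes whose signal ranged over at least 1 log2 unit. They were chosen for this likeness, so r is a description without a test, and the points share stage, array and scaling. LTBP1, which holds latent TGF-beta in the matrix, was first at r = 0.951 (Spearman rho = 0.964). It read 7.29, 6.80, 6.12 and 6.30 in early arrays and 7.20, 7.83, 7.52 and 7.49 in mid arrays. In mid-late arrays it read 8.18, 7.58, 8.35 and 8.44, in late arrays 8.52, 8.49, 8.70 and 8.87, and in very-late arrays 7.72, 5.46, 8.46 and 8.05. Like RLN2, its lowest array was very-late replicate 2. Late against early, LTBP1 rose by 2.02 ± 0.45 (limma adjusted p = 0.00873). Without the arrays farthest from the RLN2 median, very-late replicate 2 and early replicate 3, r was 0.915. Without the early arrays and very-late replicate 2, over 15 arrays, it was 0.916.

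**Figure D4:**
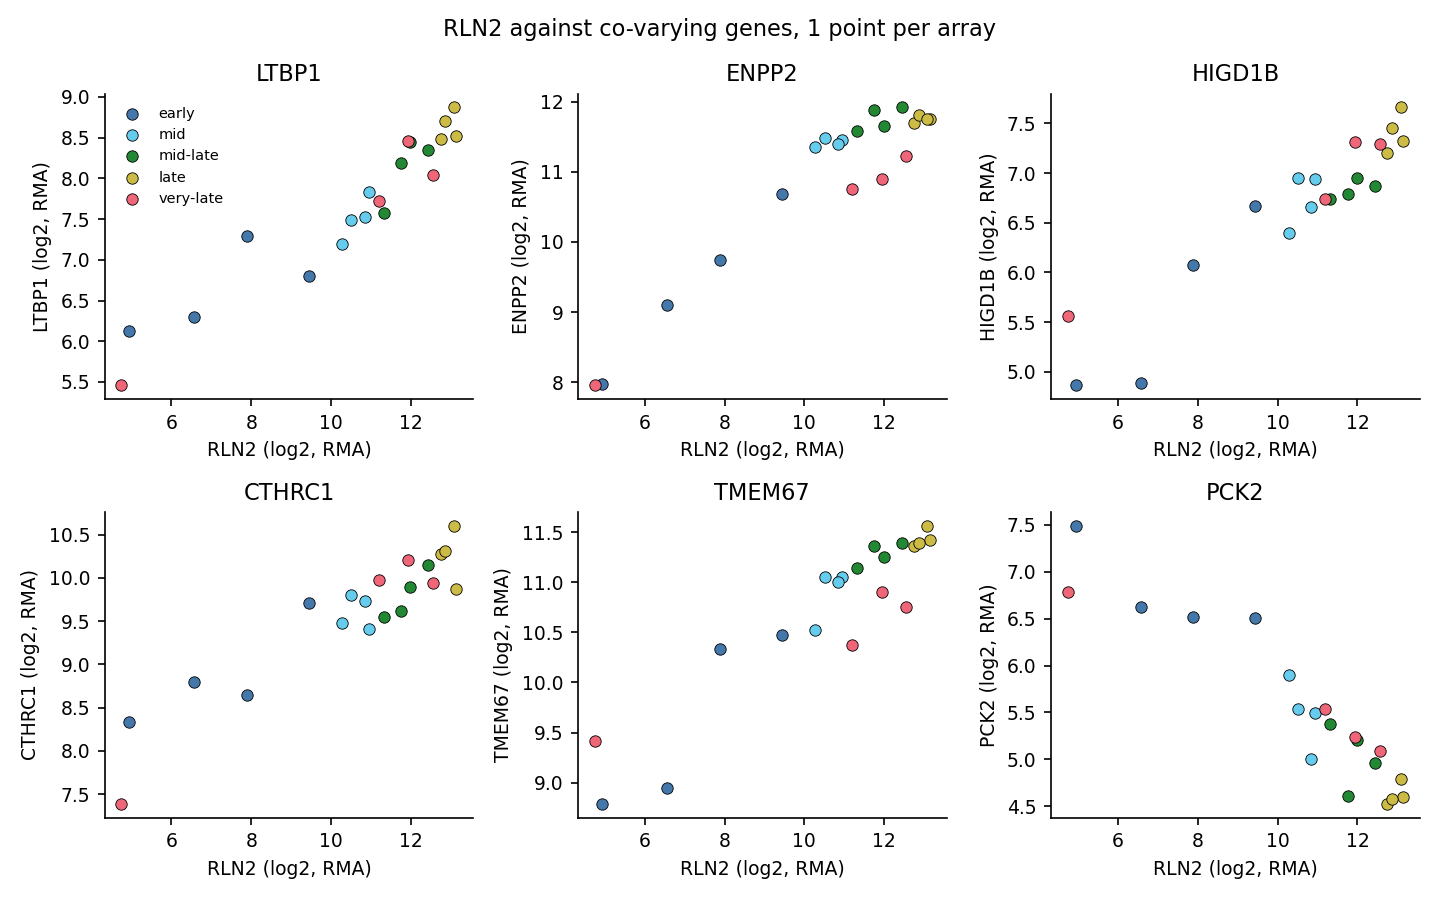
Signal of LTBP1, ENPP2, HIGD1B, CTHRC1, TMEM67 and PCK2 against RLN2 (both log2, RMA), 1 point per array, coloured by stage (n = 20). LTBP1 and ENPP2 have r = 0.951 with RLN2 and PCK2 has r = -0.938, and the early arrays with very-late replicate 2 lie at the low RLN2 end.

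ENPP2, the autotaxin that makes lysophosphatidic acid, was next at r = 0.951 (Spearman rho = 0.805). It read 9.74, 10.68, 7.97 and 9.10 in early arrays, in the same order as RLN2, and 10.75, 7.95, 10.90 and 11.23 in very-late arrays, again in the same order. Mid, mid-late and late arrays lay at 11.35 to 11.92, and within each of these stages their order differed from that of RLN2. Late against early, ENPP2 rose by 2.38 ± 0.55 (limma adjusted p = 0.0121). Its r fell to 0.434 over the 15 arrays without the early stage and very-late replicate 2, so that its likeness to RLN2 rests mostly on the arrays where RLN2 was low. After each stage mean was removed, ENPP2 was the closest gene of all, at r = 0.980 over 20 arrays and 0.964 without very-late replicate 2.

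The other 8 of the first 10 were LOC699035, HIGD1B, CTHRC1, TMEM67, ADAMTS5, CHD6, ZBTB20 and TCIM, at r = 0.943 down to 0.910. The next gene also had r = 0.910, so the limit of 10 fell between near-equal values. LOC699035 is annotated as a pseudogene and has no known role. HIGD1B, of the hypoxia-inducible HIG1 domain family, rose by 1.78 ± 0.37 in late against early (limma adjusted p = 0.0056). CTHRC1, a secreted protein of matrix-making cells, differed by 1.39 ± 0.44 (limma adjusted p = 0.0669), and ADAMTS5, an aggrecanase, by 1.33 ± 0.43 (limma adjusted p = 0.0724). TMEM67, a protein of the primary cilium, rose by 1.80 ± 0.34 (limma adjusted p = 0.00283), and 3 of its 6 probe sets did. The chromatin remodeller CHD6 rose by 1.02 ± 0.22 (limma adjusted p = 0.00694, in 2 of its 5 probe sets), the zinc finger repressor ZBTB20 by 0.84 ± 0.24 (limma adjusted p = 0.0381, in 1 of 2) and the regulator TCIM by 1.53 ± 0.27 (limma adjusted p = 0.00175). Of the 5336 genes, 16 had r over 0.9 and 11.8% had r over 0.5.

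The gene least like RLN2 was PCK2, the mitochondrial enzyme that makes phosphoenolpyruvate, at r = -0.938 (Spearman rho = -0.914). It averaged 4.62 ± 0.12 at late and 6.78 ± 0.47 at early, a fall of 2.16 ± 0.30 (limma adjusted p = 0.000321). In very-late arrays it averaged 5.66 ± 0.77, against 4.62 ± 0.12 in late arrays, a rise of 1.04 ± 0.30 (limma adjusted p = 0.0272). PA2G4, a growth regulator, RAN, the GTPase of nuclear transport, TBC1D7, a subunit of the TSC complex, and CSKMT, a methyltransferase of citrate synthase, followed at r = -0.919 to -0.890. All 4 fell in late against early, by 0.67 to 0.93, but for PA2G4 only 1 of 6 probe sets did. After each stage mean was removed, TSC22D1 (r = 0.938), CTHRC1 (0.926), ZBTB20 (0.920) and CTPS2 (0.912) came after ENPP2. Without very-late replicate 2 these 4 values were 0.796, 0.699, 0.648 and 0.633. CTPS2, an enzyme of cytidine nucleotide synthesis, had r = 0.465 before the stage means were removed.

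SERPINA4, HTR2B and ECHDC2 were followed as other genes high at the late stage. They were chosen with earlier results of these data known, so the p-values of their rise describe it and do not test it. SERPINA4, the kallikrein inhibitor kallistatin, rose by 5.14 ± 0.91 in late against early (limma adjusted p = 0.00182). SERPINA4 fell by 4.79 ± 0.91 in very-late against late (limma adjusted p = 0.00116), and 1 of its 2 probe sets passed in each comparison. It read 6.26, 3.79, 6.94 and 7.63 in very-late arrays, against 10.50 to 11.31 in late arrays. HTR2B, a serotonin receptor, rose by 3.30 ± 0.48 in late against early (limma adjusted p = 0.000401) and fell by 2.05 ± 0.48 in very-late against late (limma adjusted p = 0.00617). ECHDC2 rose by 3.30 ± 0.47 (limma adjusted p = 0.000375) and fell by 3.40 ± 0.47 (limma adjusted p = 6.15e-05) in the same comparisons. In each of these 3 genes all very-late arrays lay below all late arrays.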

How the data were processed

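Total RNA of 20 corpora lutea was hybridised to Affymetrix rhesus arrays. Per the labels' protocols it was extracted with Trizol, cleaned on RNeasy columns, and 2 µg was labelled with biotin in the one-cycle protocol. The deposited values are on a log2 scale and were made by the authors with RMA, per the submitters' processing notes. The RMA version is not given in the sources used here. They were used unchanged.

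The file held 52865 probe sets, 158 of them array controls, which were dropped. Of the 52707 tested, 24956 had 1 symbol in the platform annotation, and a gene was represented by its probe set of highest mean. In R 4.3.3, limma 3.58.1 fitted 5 stage means to 20 arrays, with 15 residual and 2.75 prior degrees of freedom. Tests were two-sided, with Benjamini-Hochberg adjustment over 52707 probe sets per comparison and a threshold of 0.05. Single-value tests were permutations, exact for pairs of stages and resampled over the 5 stages, and the number of arrays limits the precision.

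Gene and lists were chosen with earlier results of these data known. Named were RLN2, its family, up to 4 called members of each other list in late against early and in very-late against late, the 10 highest and 5 lowest r, the 5 highest r within stages, and STAR, HSD3B2, CYP19A1, LHCGR, SERPINA4, HTR2B, ECHDC2 and CD68. Other list members that passed are named without values. FCGRT was named after its values were seen. The procedure was tested on simulated data. Alternatives were median centring, cyclic loess, no dim probe sets, another prior, array weights, a replicate block, 8-array fits, exact tests and leaving out each array. No sequence was used.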

Additional observations from a re-analysis of the deposited data

Results flagged for a closer look

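In 310 groups of 4 arrays, 5 for each of 62 named probe sets, 26 (8.39%) held 1 array far from the other 3. The limit used gives about 1 in 20 by chance. The groups share arrays, and many genes were named for their likeness to RLN2, so that rate is no yardstick for the 8.39%. RLN2 was not among the 26: its very-late gap came just under the limit. In 6 of the 26 the array was very-late replicate 2. Its signal was low for ENPP2 (7.95, against 10.75 to 11.23 in the other very-late arrays), LOC699035 (7.68, against 10.57 to 11.07), CTHRC1 (7.39, against 9.94 to 10.20) and ZBTB20 (7.18, against 8.57 to 8.70). It was high there for TBC1D7 (7.46, against 5.99 to 6.20) and PDCD1LG2 (4.18, against 3.82 to 3.86). Of these genes, all but PDCD1LG2 were named for their r with RLN2.

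At the early stage, PCK2 was high in replicate 3 (7.49), the array with the lowest early RLN2, and MMP1 was high in replicate 4 (6.13). AKT1 was low in replicate 4 (6.66) and FLT1 low in replicate 2 (3.67).

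In mid replicate 1, RLN3 (3.72), LIF (5.52) and RCL1 (7.61) were high and TMEM67 (10.52) was low. In mid replicate 2, RAN (10.29) and PRLR (6.72) were low.

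At the mid-late stage, MMP9 (5.41) and ERMP1 (8.49) were low in replicate 1, and ZBTB20 (8.01) and PLPP6 (5.58) were low in replicate 2.

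At the late stage, TSC22D1 (10.93) and HTR2B (7.96) were high in replicate 1 and PIK3CG (4.47) was high in replicate 2.

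Other very-late arrays that lay apart were replicate 1 for INSL5 (3.51), replicate 3 for COL1A1 (10.51) and replicate 4 for CYP19A1 (7.29), all high.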

How the results depend on the processing

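RLN2 kept its call in late against early under every setting run, with differences of 5.00 to 6.49 (adjusted p = 2.75e-05 to 0.0272) when each array was left out in turn. Mid-late against early ran from 3.91 to 5.41 in such fits, and was lost with a trended and robust prior (4.67, adjusted p = 0.0645). The labels name no pairing of arrays by replicate number. The deviations of same-numbered arrays from their stage means correlated at -0.21 to 0.21 (median -0.02), over 0.1 in 6 of 40 pairs. These values cannot exclude a pairing, because arrays that stand apart also shape them. With the replicate number as a block, mid-late against early was also lost (4.67, adjusted p = 0.0599), while late against early kept its call (adjusted p = 0.0129).

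Leaving out 1 array gave 2.68 to 4.18 for mid against early, 2.08 to 4.69 for very-late against early, 1.04 to 1.41 for mid-late against mid, 2.20 to 2.42 for late against mid, and 0.90 to 1.27 for late against mid-late. The very-late stage gave -1.35 to 1.25 against mid, -2.58 to 0.0202 against mid-late and -3.67 to -1.06 against late. The F over stages was 4.65 to 25.8, and lost its call without early replicate 3 (adjusted p = 0.0526). The values above 0 in very-late against mid (1.25) and against mid-late (0.0202) came without very-late replicate 2.

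For RLN2 alone, the exact permutation test adjusted over the 10 pairs of stages gave p = 0.0409 in each pair without overlap. Among these were mid against early (3.44), mid-late against mid (1.23), very-late against late (-2.85), late against mid (2.32) and late against mid-late (1.08). Limma called none of those, with its p adjusted over 52707 probe sets, so the 2 adjusted values are not on a like footing. Late against mid passed on its own 8 arrays (2.32, adjusted p = 0.000403). With array weights, very-late against early passed (3.64, adjusted p = 0.0175) and very-late against mid was 0.41 (adjusted p = 0.865).

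Settings chosen after seeing the data also moved calls. Mid against early passed without the very-late arrays (3.44, adjusted p = 0.0193). Without the 2 lowest arrays, very-late replicate 2 and early replicate 3, mid against early (2.68, adjusted p = 0.0275), very-late against early (3.93, adjusted p = 3.66e-05) and late against mid (2.32, adjusted p = 0.00847) passed. Very-late against mid was then 1.25 (adjusted p = 0.0822) and against mid-late 0.0202 (adjusted p = 0.988). On the 13 arrays of high mitochondrial signal, very-late against early passed (4.47, adjusted p = 0.00233). With a term for the mitochondrial split, mid-late against mid was -0.81 and late against mid -0.40. Mid against early was then 5.48 (adjusted p = 0.0852) and very-late against mid -2.58 (adjusted p = 0.21). That term rests largely on very-late replicate 2. The causes were not tested.

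List members past the test in late against early numbered 12 to 22 when 1 array was left out, against 21 with all arrays, and the 12 came without late replicate 2. In that fit 2873 of 52707 probe sets were called in late against early, against 3994 with all arrays. In very-late against late the list members past the test numbered 27 to 34, and for any stage 38 to 43. Of the 10 genes closest to RLN2, 2 were shared with the first 10 by Spearman's rho, 3 without the early arrays, 6 without the late arrays, 4 without the very-late arrays, and 1 without the early arrays and very-late replicate 2. Of 63 calls on named genes, 46 held in all 20 fits that left out 1 array and 17 were lost in at least 1. In late against early those were INSL4, ZBTB20, TBC1D7, TSC22D1, AKT1, GNAI3, MMP1, FLT1, HSD17B7, FST, GHR, PGR and PDCD1LG2, and in very-late against late PRKACB, KDR, FLT1 and RIC1.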
